A study of Mus musculus with 2 samples.

Results

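Erythroid progenitors of 2 stages were profiled in 2 separate single-cell libraries of mouse fetal liver, and the pools of the CITE-seq library are set here against the sorted pools of the hashed library, stage by stage. The members are the cells that the deposited cell table names CS BFUE (122 cells) and CS CFUE (195 cells) in the CITE-seq library, and FACS BFU-E (233 cells) and FACS CFU-E (167 cells) in the hashed library. They were chosen by these names alone and make up 717 of the 3357 cells of the series. All cells came from E14.5 embryos of the C57BL/6 strain and were labelled as low in the surface proteins CD71 and CD24, and both libraries were made with the 10x 3' version 3 kit, which reads transcript ends and counts molecules by their unique molecular identifiers (UMIs). FACS, fluorescence-activated cell sorting, isolated the FACS BFU-E and FACS CFU-E pools, and the title of the hashed library names magnet isolation beside FACS. In the CITE-seq library the cells carried antibodies against CD117 and CD71 with DNA barcodes attached. The labels describe the CITE-seq cells as isolated by magnet and FACS too, and the series design as lineage-depleted. How the names CS BFUE and CS CFUE were given to cells is not stated by the sources at hand, and 2136 cells of that library carry no pool name. Growth medium with dexamethasone (100 uM) or methanol over 10 days appears in the labels of both libraries, and whether the sequenced cells saw it is not stated there either. Each pool is 1 sample, and the number of embryos behind it is not stated. Library, antibody staining, isolation and the naming of cells all change together between the sides of each comparison and cannot be told apart.

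Burst-forming units erythroid (BFU-E) are early progenitors committed to the red cell lineage, and colony-forming units erythroid (CFU-E) are their later, rapidly dividing progeny. Between these stages the genes shared with stem and myeloid progenitors are shut down, while genes for heme synthesis, iron uptake and the red cell membrane come up. Progenitors also carry genes that respond to handling within minutes, such as the immediate early genes Fos and Jun. In the fetal liver these cells lie among hepatocytes, whose secreted proteins albumin and alpha-fetoprotein are encoded by very abundant transcripts.

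The barcodes that separate the pools and the stains are shown because they define the sides of the comparison. The hashed library carried a barcode for each pool, and 2 of its cells have no pool name. The CITE-seq library carried a barcode for each of 2 surface proteins, CD117 (the receptor encoded by Kit) and CD71 (the transferrin receptor encoded by Tfrc). Each is 15 bases long, is written 5′ to 3′ as the labels give it, and is informative over its whole length, so no base is set in capitals.
FACS BFU-E pool, TotalSeq A0951: aacctttgccactgc
FACS CFU-E pool, TotalSeq A0952: gtccgactaatagct
CD117 antibody: tgcatgtcatcggtg
CD71 antibody: accgaccagtagaca

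The 4 pools held 2968491 UMIs (CS BFUE), 7374761 (FACS BFU-E), 7317861 (CS CFUE) and 6232350 (FACS CFU-E). The median cell had 23449, 31594, 37589 and 38377 UMIs in the same order, so CS BFUE was the shallowest pool. No cell barcode was shared between the libraries. The names held against stage markers. The 15 early erythroid progenitor genes summed to 2206 CPM (UMIs of the gene scaled to 1000000 UMIs of the pool) in CS BFUE and 2645 in FACS BFU-E against 517 in CS CFUE and 414 in FACS CFU-E, and the 22 CFU-E stage genes to 1391 and 1796 against 5385 and 6861.

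Of 17608 genes in the table, 6131 reached at least 20 CPM in any of the 4 pools and were compared. Ess2 stood just inside this limit at 20.1 CPM in its highest pool and Prkaca just outside at 19.95. A gene is called higher on a side whose pool had at least 1.5 times the level of the other, which is a size and not a test, since a pool is 1 sample and cells are not replicates. Intervals beside ratios are 95% exact conditional binomial intervals and cover counting error only. The ratio of the median gene, CITE-seq over FACS, was -0.26 on the log2 scale at the BFU-E stage and -0.22 at the CFU-E stage, so a gene with no shift against the others reads slightly low in the CITE-seq pools. A gene under 20 CPM on a side entered through the other side of that stage or through a pool of the other stage. At the BFU-E stage 1066 genes had a side under that limit and at the CFU-E stage 1250. For those that entered through the other side of the same stage alone, the direction follows in part from the filter.

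At the BFU-E stage 238 of 6131 genes (3.88%) were higher in CS BFUE and 931 (15.2%) higher in FACS BFU-E. At the CFU-E stage 294 genes (4.8%) were higher in CS CFUE and 519 (8.47%) higher in FACS CFU-E. Set against the median gene in place of the total, 488 (7.96%) and 260 (4.24%) lay past 1.5-fold at the BFU-E stage, and 482 (7.86%) and 107 (1.75%) at the CFU-E stage, so the side with more genes changes with the scaling; in both stages at once these were 309 (5.04%) and 62 (1.01%). In both stages 169 genes (2.76%) were higher in the CITE-seq pool and 303 (4.94%) higher in the FACS pool, and 4636 genes (75.6%) lay between in both. By median of ratios scaling, 286 genes were higher in the CITE-seq pools in both stages, among them all of the 169, and 72 were higher in the FACS pools, all of them among the 303. Across the 6109 genes with a ratio in both stages, the 2 log2 ratios had a Pearson r of 0.655 and a Spearman rho of 0.675. Across the 4514 genes at or above 20 CPM in all 4 pools these were 0.849 and 0.763. These are descriptions across genes, and both stages share the same pair of libraries.

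**Figure D1:**
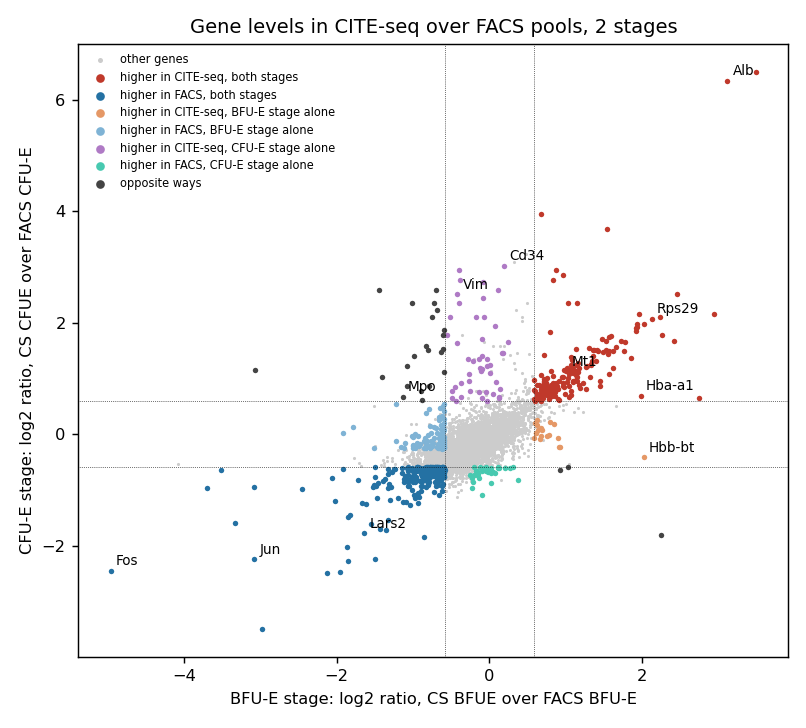
Each point is a gene, with its log2 ratio of CS BFUE over FACS BFU-E on the horizontal axis and of CS CFUE over FACS CFU-E on the vertical axis; dotted lines mark 1.5-fold. Most coloured points lie on the diagonal (169 higher in the CITE-seq pool in both stages, 303 higher in the FACS pool), while Vim and Cd34 leave it at the CFU-E stage and Hbb-bt at the BFU-E stage.

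The hashed library gives a yardstick for pools of the same library. Its other pools, PE-low and PE-high, were compared with FACS BFU-E and FACS CFU-E over the same 6131 genes. The title of this library names magnet and FACS isolation, so the PE pools may differ from the FACS pools in isolation too. Between PE-low and FACS BFU-E 115 genes (1.88%) lay past 1.5-fold either way (0.946% higher in PE-low and 0.93% in FACS BFU-E), against 1169 (19.1%) between CS BFUE and FACS BFU-E. Between PE-high and FACS CFU-E 285 genes (4.65%) did so (4.37% higher in PE-high and 0.277% in FACS CFU-E), against 813 (13.3%) between CS CFUE and FACS CFU-E. Against PE-low, 4.11% of genes were higher in CS BFUE and 16.4% in PE-low, and against PE-high, 3% were higher in CS CFUE and 10.5% in PE-high. Of the 169 genes higher in the CITE-seq pool in both stages, 138 were also past 1.5-fold over both PE pools, and of the 303 genes higher in the FACS pool, 153 were past it under both PE pools. The comparisons with FACS and with PE share the CITE-seq pools, so these counts are given side by side and not as separate support.

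Some ribosomal protein transcripts were shifted by nearly the same ratio at both stages. Cytosolic ribosomal proteins build the 2 subunits of the ribosome, and 77 of 80 genes of this list were compared. In both stages 28 of the 77 were higher in the CITE-seq pool and 2 lower, where 2.76% and 4.94% of all genes were. Relative to the median gene, the list's median log2 ratio was 0.71 at the BFU-E stage and 0.65 at the CFU-E stage. Together the list took 31.1% of UMIs in CS BFUE and 22.7% in FACS BFU-E, and 29.2% in CS CFUE and 21.9% in FACS CFU-E. By cell the median was 31.4% in CS BFUE (5th to 95th percentile 26.9 to 35.9) and 22.8% in FACS BFU-E (19.5 to 26.5), so these ranges do not meet. In the CITE-seq cells without a pool name the median was 29.8%, and in PE-low and PE-high it was 22.4% and 21.6%.

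Rps29, a protein of the small subunit, stood at 3979 CPM in CS BFUE and 909 in FACS BFU-E, and at 3427 in CS CFUE and 819 in FACS CFU-E. Both CITE-seq pools lay well above both FACS pools, by 4.37-fold (4.25 to 4.51) at the BFU-E stage and 4.19-fold (4.06 to 4.32) at the CFU-E stage. Counted by cell, the 5th to 95th percentile ran from 31.0 to 52.7 UMIs per 10000 in CS BFUE and from 6.24 to 12.8 in FACS BFU-E, with no overlap. The gene lies on chromosome 12, from 69157722 to 69159186 in GRCm38.p6. Rps28, Rpl41, Rps21 and Rpl38 were 4.07-fold, 3.83-fold, 3.801-fold and 3.78-fold higher at the BFU-E stage, and 3.94-fold, 3.79-fold, 3.73-fold and 3.60-fold at the CFU-E stage. Rps27 showed the widest gap of the list, at 187 CPM against 33.9 and 176 against 31.0, and 7 genes of the list were at least 3-fold higher in both stages.

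The shift differed from gene to gene and was nearly the same in both stages for each. Log2 ratios of the 77 genes ran from -1.04 to 2.46 at the BFU-E stage and from -1.27 to 2.51 at the CFU-E stage. The 2 stages differed by a median of 0.05 and at most 0.28 for the same gene. Some large subunit genes lay toward the low end: Rpl4 had log2 ratios of -0.49 and -0.37, Rpl3 of -0.36 and -0.37 and Rpl5 of -0.59 and -0.54. Rpl10 and Rpl9 were lower in the CITE-seq pools in both stages, Rpl10 at 14.5 against 29.8 CPM and 11.9 against 28.7. Between PE-low and FACS BFU-E no gene of the 77 differed by more than 0.20, and between PE-high and FACS CFU-E by more than 0.13. Many ribosomal protein genes have near-identical pseudogenes. Rpl10-ps3 was lower together with Rpl10 (20.5 against 74.7 CPM and 17.8 against 72.7) and Rpl36a-ps1 higher (42.8 against 11.0 and 40.7 against 9.15), and how reads were shared among such copies is uncertain.

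**Figure D2:**
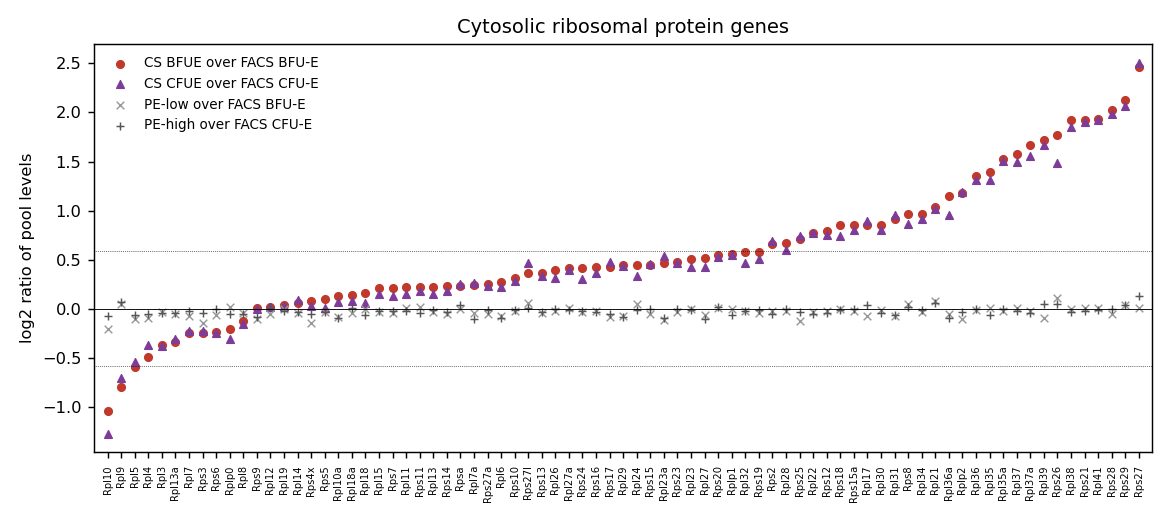
Log2 ratios of 77 cytosolic ribosomal protein genes, ordered by the BFU-E stage ratio: circles are CS BFUE over FACS BFU-E, triangles CS CFUE over FACS CFU-E, crosses and plus signs the PE pools over the FACS pools of the same library. The 2 CITE-seq series follow each other from -1.27 to 2.51, while the PE series stay within 0.20 of 0.

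Some nuclear genes of the respiratory chain and of ATP synthase were higher in both CITE-seq pools, and most of the list was not past 1.5-fold. Of 75 nuclear oxidative phosphorylation genes compared (of 78), 23 were higher in the CITE-seq pool in both stages (2.76% of all genes were) and 0 in the FACS pool (4.94%), with a median of 0.44 above the median gene at either stage. Ndufa3, a subunit of complex I, stood at 193 CPM in CS BFUE and 63.9 in FACS BFU-E, and at 192 in CS CFUE and 56.5 in FACS CFU-E. Atp5k, Atp5mpl and Atp5e, small subunits of ATP synthase, were 2.90-fold, 2.81-fold and 2.53-fold higher at the BFU-E stage and 3.18-fold, 2.77-fold and 2.40-fold at the CFU-E stage. Each of these 4 genes lay within a narrow range in the FACS and PE pools; Ndufa3 had 58.6 CPM in PE-low and 57.3 in PE-high.

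Mitochondrially encoded genes did not move as a block. Of 13 compared, 2 were higher in the CITE-seq pool in both stages, where 2.76% of all genes were. The share of UMIs from these genes was 3.23% in CS BFUE and 2.93% in FACS BFU-E, and 3.47% in CS CFUE and 3.59% in FACS CFU-E. mt-Nd3, a short complex I subunit gene, stood at 761 CPM in CS BFUE and 222 in FACS BFU-E, and at 761 in CS CFUE and 242 in FACS CFU-E, ratios of 3.42 (3.21 to 3.65) and 3.14 (2.96 to 3.32). mt-Nd6, the complex I gene on the other strand, was 2.20-fold (1.65 to 2.94) and 1.95-fold (1.46 to 2.63) higher. mt-Atp8 was not, at 71.8 against 87.9 CPM and 64.5 against 96.1.

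Genes higher in the CITE-seq pool in both stages spanned little of the genome. Their median span from first to last annotated base was 4387 bp (166 of 169 genes with a RefSeq span), against 21530 bp over all genes compared and 15452 bp over the 303 genes higher in the FACS pool. With ribosomal protein genes left out, the medians were 5660 bp and 21925 bp. Within the ribosomal protein genes, the 28 higher in the CITE-seq pool had a median span of 2739 bp and the other 49 of 3183 bp. Span includes introns and is not transcript length, and the part of length in the shift was not tested.

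Metallothioneins, small proteins that bind zinc and copper, were higher in the CITE-seq pools in both stages. Mt1 stood at 962 CPM in CS BFUE and 479 in FACS BFU-E, and at 2138 in CS CFUE and 981 in FACS CFU-E, ratios of 2.01 (1.91 to 2.11) and 2.18 (2.11 to 2.24). Mt2 stood at 191 and 76.6 CPM, and at 840 and 414, ratios of 2.49 (2.21 to 2.80) and 2.03 (1.94 to 2.12). The PE pools lay near the FACS pools, with Mt1 at 523 CPM in PE-low and 947 in PE-high. The 2 genes are neighbours on chromosome 8, and the stage difference within each library, higher in CFU-E, held on both sides. Since they move together, the RefSeq sequence before the start of Mt2 is shown (GRCm38.p6, chr8:94172368-94172617, plus strand). Capitals mark matches to the core of the metal response element, searched as TGCACNC and TGCGCNC on both strands.
Mt2, 250 bases before the start: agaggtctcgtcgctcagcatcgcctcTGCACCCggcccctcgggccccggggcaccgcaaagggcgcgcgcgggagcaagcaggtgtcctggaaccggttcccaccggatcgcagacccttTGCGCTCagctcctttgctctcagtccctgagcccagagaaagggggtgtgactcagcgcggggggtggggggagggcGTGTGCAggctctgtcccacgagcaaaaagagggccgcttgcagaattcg
The Mt2 window holds 3 matches, and the Mt1 window, which is not shown, holds 1. Of 27025 promoter windows of this length 21.3% hold at least 1. A match is a description of letters and not a bound site. Mt1 and Mt2 are listed with glucocorticoid response genes because they respond to these hormones too. Of 6 genes of that list compared, 2, Mt1 and Mt2, were higher in the CITE-seq pool in both stages (2.76% of all genes). Fkbp5 was the 1 higher in the FACS pool in both (4.94%). Fkbp5, a co-chaperone of the glucocorticoid receptor and a textbook target of it, stood at 16.8 against 29.2 CPM and 7.24 against 11.6. Nr3c1, the receptor itself, had ratios of 1.14 (0.963 to 1.34) and 1.32 (1.14 to 1.53). A part of the hormone in these shifts was not tested.

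Host transcripts of small nucleolar RNAs were mixed. Snhg3 stood at 327 CPM in CS BFUE and 156 in FACS BFU-E, and at 369 in CS CFUE and 169 in FACS CFU-E. Snhg8 and Snhg6 were also higher in both stages, at ratios of 2.11 and 1.65 at the BFU-E stage and 1.71 and 1.94 at the CFU-E stage. In the same list of 18 genes compared, 4 were higher in the CITE-seq pool in both stages (2.76% of all genes) and 2 lower (4.94%). Neat1, a long nuclear RNA, had 3.43 times the CS BFUE level in FACS BFU-E (2.26 to 5.42), with 14 UMIs in CS CFUE and 16 in FACS CFU-E.

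Of 18 histone genes, a list of core histones, linker histones and variants that package DNA, 3 were higher in the CITE-seq pool in both stages, where 2.76% of all genes were. Hist1h4d stood at 276 CPM in CS BFUE and 75.8 in FACS BFU-E, and at 218 in CS CFUE and 84.9 in FACS CFU-E. Hist2h2ac and H2afj were the others, at ratios of 2.40 and 1.66 at the BFU-E stage and 1.74 and 1.75 at the CFU-E stage. Histone genes share close copies, and how reads were divided among them is uncertain.

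Pfn1, profilin, which feeds actin monomers to growing filaments, stood at 941 CPM in CS BFUE and 246 in FACS BFU-E, and at 807 in CS CFUE and 206 in FACS CFU-E. Spag7, a nearby gene on chromosome 11, was shifted the opposite way, at 13.5 against 48.4 CPM and 9.43 against 45.9. Pfn1 runs from 70651844 to 70656799 and Spag7 from 70663769 to 70669416 in GRCm38.p6, 6969 bp apart. In the PE pools Pfn1 had 273 and 236 CPM and Spag7 52.1 and 42.4, near the FACS pools. Ndufa4l2, a mitochondrial protein induced by low oxygen, was 7.73-fold higher in CS BFUE (3.55 to 18.6, 28 UMIs against 9) and 4.46-fold in CS CFUE (3.39 to 5.96). Its UMIs came from 11 of 122 CS BFUE cells and 81 of 195 CS CFUE cells.

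Immediate early genes had the lowest list median of all lists at the BFU-E stage, and FACS BFU-E was the pool that stood apart. Of 22 genes on this list 13 were compared. FACS BFU-E had the higher level for 12 of the 13 (against 15.2% of all genes), and FACS CFU-E for 9 (against 8.47%), which were the 9 shifted in both stages. As 9 of the 13 had a side under 20 CPM at the BFU-E stage and 10 at the CFU-E stage, these counts describe the genes and support nothing. Relative to the median gene, the median log2 ratio was -1.66 and -0.53. The whole list summed to 938 CPM in FACS BFU-E, 251 in CS BFUE and 248 in PE-low, and to 297 in FACS CFU-E, 175 in CS CFUE and 240 in PE-high. The FACS BFU-E sum was thus the highest of all pools, including PE-low of the same library.

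Fos and Jun encode the subunits of the AP-1 transcription factor. Jun stood at 33.0 CPM in CS BFUE and 279 in FACS BFU-E, and at 6.70 in CS CFUE and 31.8 in FACS CFU-E. The FACS level was 8.46 times the CITE-seq level at the BFU-E stage (6.91 to 10.5) and 4.74 times at the CFU-E stage (3.46 to 6.63), while PE-low had 13.6 CPM and PE-high 6.27. Cells with a Jun UMI were 36.1% of CS BFUE and 76.8% of FACS BFU-E, and with each cell thinned to 12000 UMIs 27.0% and 65.2%. Fos had 4 UMIs in CS BFUE and 310 in FACS BFU-E, or 1.35 and 42.0 CPM, and 0 in CS CFUE against 14 in FACS CFU-E. That is a gap of 31.2-fold (12.1 to 115) at the BFU-E stage. With the 0 set to a floor of 3 counts it is 5.48-fold at the CFU-E stage, where the interval starts at 3.89 and has no upper end. In FACS CFU-E 4 cells held the 14 UMIs and 1 of them 64.3%, so the later stage rests on few cells.

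Since Jun encodes an AP-1 subunit and was past 1.5-fold at both stages, the RefSeq sequence before its start is shown (GRCm38.p6, chr4:95052223-95052472, minus strand). Capitals mark the match to the AP-1-like element, searched as TGACATCA and TGACTCA on both strands, through which Jun is known to regulate its own gene.
Jun, 250 bases before the start: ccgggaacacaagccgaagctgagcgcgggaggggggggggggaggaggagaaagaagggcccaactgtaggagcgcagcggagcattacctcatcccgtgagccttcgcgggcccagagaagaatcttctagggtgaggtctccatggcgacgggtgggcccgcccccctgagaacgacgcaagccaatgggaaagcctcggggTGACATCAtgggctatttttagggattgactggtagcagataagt
Of 27025 promoter windows 7.27% hold such a match, and no binding was measured.

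Regulators that shut these signals off were measured too. Dusp1, a phosphatase of MAP kinases, stood at 2.69 CPM in CS BFUE and 27.3 in FACS BFU-E, and at 2.87 in CS CFUE and 8.66 in FACS CFU-E. Zfp36, which binds and destabilises AU-rich transcripts, had a FACS level 12.9 times the CITE-seq level at the BFU-E stage (6.18 to 32.5) and 1.957 times at the CFU-E stage (0.644 to 6.55, 10 UMIs against 6). Nfkbia, the inhibitor of NF-kappa B, exceeded the CITE-seq level in the FACS pools by 3.62-fold (2.77 to 4.81) and 2.79-fold (1.99 to 3.97). Btg2 and Ier3 were higher in FACS BFU-E alone: Btg2, an antiproliferative gene, at 24.3 CPM against 6.40 in CS BFUE, with 8.99 and 9.16 at the CFU-E stage, and Ier3 at 27.8 against 8.08, with 6.42 and 6.97. By cell, the list took a median of 0.0572% of UMIs in FACS BFU-E (5th to 95th percentile 0.0125 to 0.359) and 0.0225% in CS BFUE (0.00649 to 0.0530), so the ranges overlap at their lower ends. With cells that carry myeloid transcripts left out, Fos in FACS BFU-E was 18.3 CPM and Jun 180, against 0 and 16.4 in CS BFUE.

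**Figure D3:**
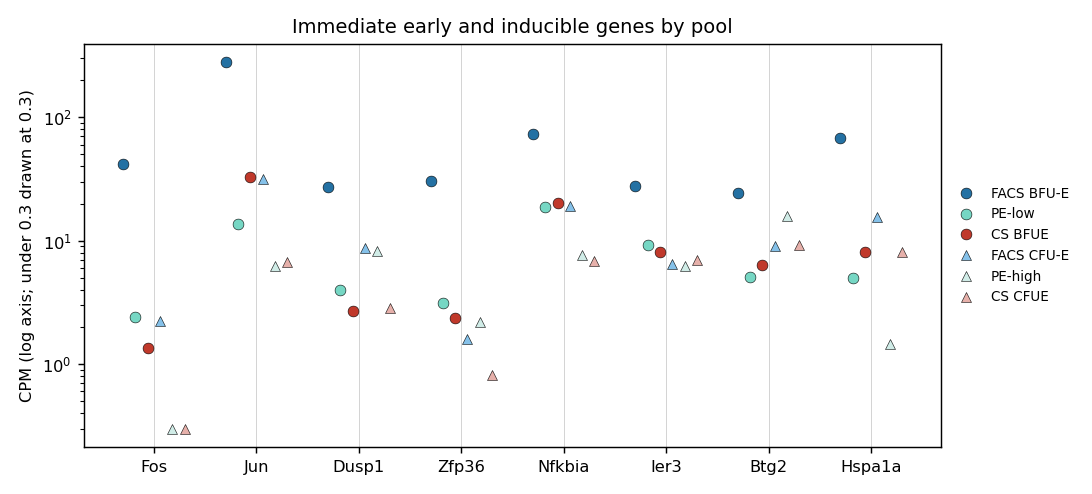
CPM of 8 inducible genes in 6 pools on a log axis, circles for the BFU-E stage and triangles for the CFU-E stage; values under 0.3 are drawn at 0.3. FACS BFU-E is the highest point for each gene, with Jun at 279 CPM against 33.0 in CS BFUE and 13.6 in PE-low.

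Among 13 heat shock genes compared (of 15), 3 were higher in the FACS pool in both stages, where 4.94% of all genes were. At the BFU-E stage 5 of the 13 were higher in FACS BFU-E (15.2% of all genes), and at the CFU-E stage FACS CFU-E had the higher level for 3 (8.47%) and CS CFUE for 1 (4.8%). Hspa1a, the inducible Hsp70, stood at 8.08 CPM in CS BFUE and 68.6 in FACS BFU-E, and at 8.06 in CS CFUE and 15.6 in FACS CFU-E, with 4.94 in PE-low and 1.45 in PE-high. Dnajb1, its co-chaperone, exceeded the CITE-seq level in the FACS pools by 2.74-fold (2.23 to 3.40) and 1.85-fold (1.64 to 2.09). Hspa8, the constitutive Hsp70, stood at 2584 CPM against 4449 and 2738 against 4441. For Hspa8 the PE pools, at 4044 and 4336 CPM, lay with the FACS pools, while for Hspa1a they lay with or below the CITE-seq pools.

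Of 17 genes of the unfolded protein and amino acid responses compared, 3 were higher in the FACS pool in both stages, where 4.94% of all genes were. Hspa5, the main chaperone of the endoplasmic reticulum, stood at 253 CPM in CS BFUE and 557 in FACS BFU-E, and at 264 in CS CFUE and 429 in FACS CFU-E. Atf4, the transcription factor of the integrated stress response, exceeded the CITE-seq level in the FACS pools by 1.85-fold (1.602 to 2.14) and 1.79-fold (1.64 to 1.957). Calr and Ddit3 passed 1.5-fold at the BFU-E stage, at 1.89-fold and 1.85-fold, and had 1.42-fold and 1.46-fold at the CFU-E stage. Relative to the median gene, the list stood at -0.35 and -0.22.

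Among the remaining genes higher in the FACS pools, AY036118, a noncoding RNA on chromosome 17, stood at 62.3 CPM in CS BFUE and 242 in FACS BFU-E, and at 32.2 in CS CFUE and 179 in FACS CFU-E. Gm42418, an overlapping predicted gene named after its values were seen, had 2558 CPM against 6545 and 1506 against 4941. This locus is known to collect reads of ribosomal RNA in mouse data. Lars2, the mitochondrial leucyl-tRNA synthetase, exceeded the CITE-seq level in the FACS pools by 3.12-fold (2.69 to 3.63) and 3.44-fold (3.07 to 3.87). In all 3 the PE pools lay near the FACS pools, AY036118 at 251 and 193 CPM. Hmgcs1, an early enzyme of cholesterol synthesis, stood at 16.8 CPM in CS BFUE and 27.5 in FACS BFU-E, and at 9.57 in CS CFUE and 14.4 in FACS CFU-E.

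DNA replication genes and mitotic genes gave different counts. Of 30 S phase genes, 7 were higher in the FACS pool in both stages (4.94% of all genes) and 0 in the CITE-seq pool (2.76%), with medians of -0.19 and -0.21 relative to the median gene. Ung, the uracil-DNA glycosylase, stood at 32.7 CPM in CS BFUE and 95.6 in FACS BFU-E, and at 24.7 in CS CFUE and 75.7 in FACS CFU-E. Ccne1, cyclin E1, exceeded the CITE-seq level in the FACS pools by 2.85-fold (2.29 to 3.58) and 1.88-fold (1.73 to 2.05), and Rrm2, of the enzyme that makes deoxynucleotides, by 1.85-fold and 1.80-fold. Of 32 G2/M genes, 4 were higher in CS BFUE (3.88% of all genes) and 0 in CS CFUE (4.8%), with medians of 0.46 and 0.31 above the median gene. PE-low also lay above FACS BFU-E for this list, by a median log2 ratio of 0.24, and CS BFUE over PE-low had a median of -0.09. Nusap1, a spindle protein, stood at 109 CPM in CS BFUE and 54.2 in FACS BFU-E, and at 98.9 in CS CFUE and 68.4 in FACS CFU-E. A change of scaling moves both lists alike and leaves the gap between them.

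Some genes that mark the later stage were higher in the FACS pools at both stages, and most were not past 1.5-fold. Stage class was set on PE-low and PE-high, which are in neither comparison: 652 genes were early (10.6%) and 399 late (6.51%). At the BFU-E stage FACS BFU-E had the higher level for 29.1% of late genes and CS BFUE for 2.26%; at the CFU-E stage FACS CFU-E had it for 22.8% and CS CFUE for 1.25%. Of the 5080 genes of neither class, 13.8% and 7.58% were higher in the FACS pool. Late genes lay at -0.13 relative to the median gene at either stage. Of 22 CFU-E stage genes, 2, Mrap and Rgcc, were higher in the FACS pool in both stages, where 4.94% of all genes were. Mrap, an accessory protein of melanocortin receptors, stood at 51.0 CPM in CS CFUE and 101 in FACS CFU-E, and Rgcc, which acts on cyclin-dependent kinases, at 355 and 537. For the BFU-E stage Mrap rested on 3 UMIs against 41.

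Few red cell membrane, heme and iron genes were past 1.5-fold in both stages. Of 12 erythroblast and membrane skeleton genes compared, 3 were higher in the FACS pool in both stages (4.94% of all genes), and the list lay at 0.08 and -0.36 relative to the median gene. Tmod1, which caps actin in the membrane skeleton, reached 2.22 times the CS CFUE level in FACS CFU-E (1.64 to 3.04) and had 3 UMIs in CS BFUE against 17 in FACS BFU-E. Bpgm, which makes the oxygen affinity regulator of hemoglobin, exceeded the CITE-seq level in the FACS pools by 1.93-fold (1.30 to 2.97) and 1.56-fold (1.26 to 1.94), and Slc2a1, a glucose transporter, by 1.78-fold and 1.92-fold. Of 16 heme pathway genes compared, 2 were higher in the FACS pool in both stages (4.94% of all genes): Abcb6, a porphyrin transporter, and Slc25a38, the mitochondrial glycine carrier. Slc25a38 stood at 16.8 CPM in CS BFUE and 33.2 in FACS BFU-E, and at 65.0 in CS CFUE and 110 in FACS CFU-E. Of 16 iron genes, 2 were so too, against the same 4.94%: Steap3, the ferrireductase of endosomes, and Slc11a2, the iron transporter beside it. Steap3 stood at 41.1 against 81.4 CPM and 86.4 against 139. Relative to the median gene, the heme list lay at -0.16 and -0.14 and the iron list at -0.15 and -0.11.

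Among 24 erythroid transcription factors, E2f2 and E2f4, regulators of cell cycle genes, were higher in the FACS pool in both stages, 2 of 24 where 4.94% of all genes were. E2f4 stood at 81.9 CPM in CS BFUE and 147 in FACS BFU-E, and at 201 in CS CFUE and 307 in FACS CFU-E. Tal1, a master regulator of blood formation, had 1.62 times the CITE-seq level in FACS BFU-E (1.36 to 1.94) and 1.39 times in FACS CFU-E (1.25 to 1.54). Stat5a, which carries the erythropoietin signal, had 1.88 and 1.25 times. The list as a whole lay at -0.12 and 0.08 relative to the median gene. On that scale 3 passed 1.5-fold in FACS BFU-E (4.24% of all genes) and 1 in CS BFUE (7.96%). At the CFU-E stage 1 did in FACS CFU-E (1.75%) and 4 in CS CFUE (7.86%).

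The antigens used for isolation or staining were measured next. Kit stood at 119 CPM in CS BFUE and 97.1 in FACS BFU-E, and at 70.8 in CS CFUE and 42.5 in FACS CFU-E, ratios of 1.22 (1.07 to 1.39) and 1.66 (1.43 to 1.94). Tfrc stood at 58.6 and 82.0 CPM, and at 276 and 326. Cd24a stood at 65.0 and 47.3, and at 294 and 374. Kit was the only one of the 3 past 1.5-fold, at the CFU-E stage, and the sources used here do not give the gates behind the pools.

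Shifts at one stage alone were fewer. A gene was placed there when it passed 1.5-fold at that stage, lay within 1.2-fold or on the opposite side at the other, and the interval of the ratio of ratios left out 1. In the BFU-E stage alone 19 genes (0.31%) were higher in CS BFUE and 89 (1.45%) in FACS BFU-E. At the CFU-E stage alone 48 (0.783%) were higher in CS CFUE and 32 (0.522%) in FACS CFU-E, and 25 genes (0.408%) passed 1.5-fold in opposite ways. The remaining 800 genes passed it at 1 stage and fell short at the other without meeting these terms.

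The FACS BFU-E side held Btg2, Ier3 and some early progenitor genes. By the PE pools 24 of its 89 genes (27.0%) fell in the early class, against a background of 10.6%, while 7 were late and 58 of neither class. In the early erythroid progenitor list, with 14 members compared, FACS BFU-E had the higher level for 4 (15.2% of all genes). CS BFUE had it for 1 (3.88%), Ctla2a, at 98.7 against 50.4 CPM. Both counts are whatever the level at the later stage. Relative to the median gene the list lay at -0.0037, so as a whole it was not shifted at the BFU-E stage. On that scale 3 members passed 1.5-fold in FACS BFU-E (4.24% of all genes) and 1 in CS BFUE (7.96%). Without cells that carry myeloid transcripts the log2 ratio of Ctla2a was -0.29. Emb, an adhesion protein of the immunoglobulin family, had 57.9 CPM in CS BFUE and 135 in FACS BFU-E, and 17 UMIs in CS CFUE against 10 in FACS CFU-E. Cd9, a tetraspanin, stood at 23.2 against 40.3 CPM. Nckap1l, a regulator of actin in blood cells, stood at 24.3 against 36.9. Emb UMIs came from 35 of 122 CS BFUE cells and 70 of 233 FACS BFU-E cells, and with cells that carry myeloid transcripts left out Emb stood at 2.12 and 0.596 CPM. Cells of that kind were 48 of 122 in CS BFUE and 83 of 233 in FACS BFU-E, and 3 of 195 and 1 of 167 at the later stage. On the CS BFUE side, Msi2, an RNA-binding protein of stem and progenitor cells, stood at 86.9 against 51.4 CPM, with 41.8 and 42.8 at the CFU-E stage. Hist1h1a, a linker histone, stood at 187 against 118, with 171 and 181, and Polr3a, the large subunit of RNA polymerase III, at 21.6 against 12.5, with 18.2 and 18.3.

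At the CFU-E stage alone, 47 of the 48 genes higher in CS CFUE were of the early class by the PE pools, where 10.6% of all genes compared were. At that stage 42 of the 48 had a side under 20 CPM, and at the BFU-E stage 4 had. A gene under this limit in both CFU-E pools entered through a BFU-E pool, so its early class follows in part from the filter. As a class, 19.2% of early genes had the higher level in CS CFUE and 6.595% in FACS CFU-E, against 5.52% and 17.8% at the BFU-E stage. Vim, Cd34 and Apoe were much lower in both CFU-E pools than in the BFU-E pools. Vim, the intermediate filament vimentin, stood at 10.9 CPM in CS CFUE and 1.93 in FACS CFU-E, against 348 in CS BFUE and 465 in FACS BFU-E. Cells with a Vim UMI were 24 of 195 in CS CFUE and 12 of 167 in FACS CFU-E, and 1 CS CFUE cell held 22.5% of its UMIs. Cd34, a surface protein of stem and early progenitors, had 19 UMIs in 3 CS CFUE cells and 2 UMIs in 2 FACS CFU-E cells, and 1 cell held 57.9% of the 19. Apoe, the lipid carrier apolipoprotein E, was spread more widely, at 33.1 CPM in 76 cells against 10.1 in 42 cells, a ratio of 3.27 (2.47 to 4.39).

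PE-high, the later PE pool, carried the same early genes at higher levels than either: Vim 45.2 CPM, Cd34 13.9, Ramp1 21.3 and Apoe 80.8. Of the 48 genes, 44 lay past 1.5-fold between PE-high and FACS CFU-E, so FACS CFU-E was the lowest of the later pools for most of them. Ramp1, a coreceptor of peptide hormone receptors, stood at 4.24 CPM in CS CFUE and 0.642 in FACS CFU-E. Tyrobp and Fcer1g, adaptors of myeloid receptors, had 12 and 10 UMIs in CS CFUE and 2 each in FACS CFU-E. Ifitm1, an interferon-induced membrane protein, had 21 UMIs in 4 cells against 3 in 3. With cells that carry myeloid transcripts left out, 25 genes were higher at the CFU-E stage alone, 20 of them among the 48. Vim was then 5.56 against 1.77 CPM and Cd34 0.139 against 0.322. So 3 CS CFUE cells held nearly all of the Cd34 gap, while part of the Vim gap remained.

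On the other side, the 32 genes higher in FACS CFU-E alone had modest ratios. Tspan6, a tetraspanin, stood at 6.29 CPM in CS CFUE and 13.5 in FACS CFU-E, with 24.9 and 26.6 at the BFU-E stage. Ankle1, a nuclease of blood cells, stood at 10.5 and 20.5, with 12.1 and 14.2. Polq and Neil3, DNA repair enzymes, had FACS CFU-E levels 1.53 times (1.201 to 1.95) and 1.62 times (1.24 to 2.12) those of CS CFUE. In the glycolysis list, 3 of 17 genes compared were higher in CS CFUE, where 4.8% of all genes were. Bnip3, a mitophagy receptor induced by low oxygen, stood at 35.0 against 13.2 CPM at the CFU-E stage and 27.3 against 22.5 at the BFU-E stage. Gapdh stood at 323 against 188 and 304 against 216, and Hk2, hexokinase, at 9.02 against 4.01 and 21.6 against 17.1.

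Hepatocyte transcripts had the highest ratios of all genes higher in the CITE-seq pool in both stages. Alb stood at 9.43 CPM in CS BFUE and 1.08 in FACS BFU-E, and at 51.9 in CS CFUE and 0.642 in FACS CFU-E. Afp stood at 13.8 and 1.22, and at 57.9 and 0.642. In CS CFUE 2 cells had at least 0.5% of their UMIs from 11 hepatocyte markers, and without them Alb was 13.9 CPM and Afp 13.4. Neither gene reached 20 CPM in any of the 4 pools without those cells, so both entered the comparison through them. The levels left were still higher in the CITE-seq pool in both stages. Cells with an Alb UMI were 18.03% of CS BFUE, 3.43% of FACS BFU-E, 40.5% of CS CFUE and 1.80% of FACS CFU-E. Thinned to 12000 UMIs a cell, the shares were 9.84%, 1.29%, 16.9% and 0.599%. Albumin is a hepatocyte product, and how its UMIs came to be counted in these cells was not tested. Only these 2 of the 11 hepatocyte markers reached 20 CPM in a pool. None of the 11 was at 0 in either CITE-seq pool, while FACS BFU-E had 4 of them at 0 and FACS CFU-E 3. The summed list was 45.8 CPM in CS BFUE, 13.3 in FACS BFU-E, 189 in CS CFUE and 3.05 in FACS CFU-E. In the CITE-seq cells without a pool name Alb stood at 52.0 CPM.

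**Figure D4:**
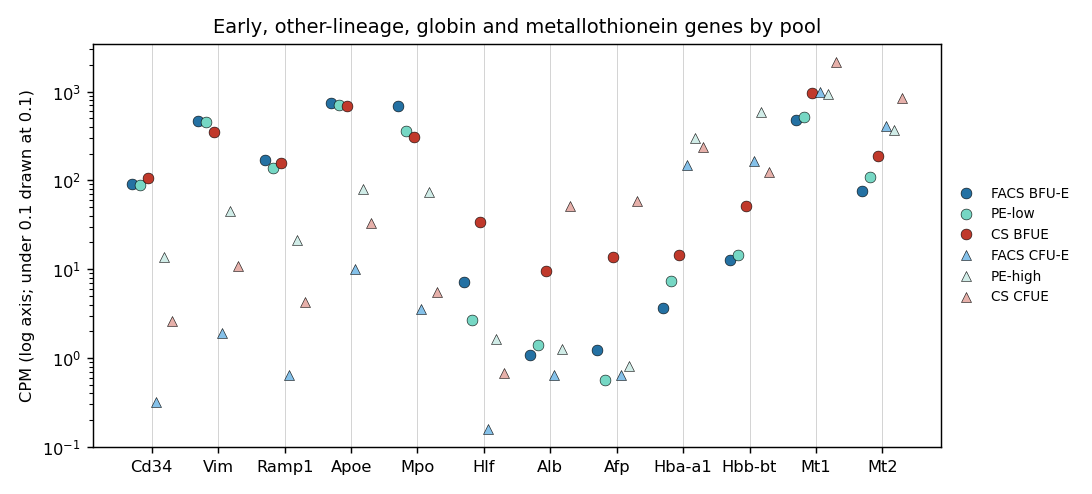
CPM of 12 genes in 6 pools on a log axis, circles for the BFU-E stage and triangles for the CFU-E stage; values under 0.1 are drawn at 0.1. Early genes such as Vim and Cd34 are lowest in FACS CFU-E (1.93 and 0.321 CPM), and Alb and Afp stand apart in the 2 CITE-seq pools.

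Globin transcripts were low in both BFU-E pools. Hbb-bt, an adult beta globin, stood at 51.9 CPM in CS BFUE and 12.7 in FACS BFU-E, and at 125 in CS CFUE and 166 in FACS CFU-E. Hba-a1, an alpha globin, stood at 14.5 and 3.66, and at 238 and 147. At the BFU-E stage the ratio was 4.07 for Hbb-bt (3.13 to 5.32) and 3.96 for Hba-a1 (2.39 to 6.66), while at the CFU-E stage Hbb-bt was 0.752 (0.687 to 0.823) and Hba-a1 1.61 (1.49 to 1.75). A single CS BFUE cell held 24.7% of the Hbb-bt UMIs, and with cells that carry myeloid transcripts left out its BFU-E stage log2 ratio was 0.44. Cells with an Hbb-bt UMI were 38.5% of CS BFUE and 30.5% of FACS BFU-E, or 25.4% and 15.5% when thinned. Hba-a1 and Hba-a2, like Hbb-bs and Hbb-bt, are near-identical copies, and the split of reads within a pair is uncertain. No cell of the 4 pools had 1% or more of its UMIs from globins.

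Markers of other blood cells were counted in the same way. Of 11 granulocyte progenitor markers 4 were compared, and these 4 were higher in FACS BFU-E, where 15.2% of all genes were. Mpo, myeloperoxidase, stood at 310 CPM in CS BFUE and 680 in FACS BFU-E, and at 5.603 in CS CFUE and 3.53 in FACS CFU-E. The whole list summed to 633 CPM in CS BFUE, 1339 in FACS BFU-E, 13.8 in CS CFUE and 6.74 in FACS CFU-E, and 46 of 122 and 103 of 233 BFU-E cells had an Mpo UMI. Elane, neutrophil elastase, was at 0 in both CFU-E pools. The part of these cells in the shifts was examined by leaving them out: 147 of the 169 genes and 247 of the 303 genes kept their place in both stages. Fewer did at the BFU-E stage alone: 7 of the 19 higher in CS BFUE and 40 of the 89 higher in FACS BFU-E. At the CFU-E stage alone 20 of the 48 higher in CS CFUE and 10 of the 32 higher in FACS CFU-E did.

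Of 6 stem and multipotent progenitor markers compared, 2 were higher in CS BFUE (3.88% of all genes) and 3 in CS CFUE (4.8%). Hlf, a transcription factor of stem cells, stood at 34.0 CPM in CS BFUE and 7.19 in FACS BFU-E, a ratio of 4.73 (3.36 to 6.73), with 5 UMIs in CS CFUE and 1 in FACS CFU-E. Its UMIs came from 28 of 122 CS BFUE cells, and without cells that carry myeloid transcripts it stood at 2.65 and 2.98 CPM. Cpa3, a mast cell protease, was 2.48-fold higher in CS BFUE (1.80 to 3.44), from 15 cells, and without cells that carry myeloid transcripts its log2 ratio was -0.0021. Megakaryocyte markers, 3 of 9 compared, included Itga2b, integrin alpha IIb, at 9.43 against 20.1 CPM. Monocyte markers summed to 142 CPM in CS BFUE and 222 in FACS BFU-E, and to 8.34 and 4.01 at the CFU-E stage. A pool sum cannot tell fewer cells of a type from less RNA per cell. Xist, expressed in female cells, stood at 293 CPM in CS BFUE, 221 in FACS BFU-E, 218 in CS CFUE and 238 in FACS CFU-E, and the Y-linked Eif2s3y at 30.0, 29.6, 31.0 and 34.8, and cells with an Xist UMI were 44 of 122, 91 of 233, 79 of 195 and 66 of 167, so each pool held UMIs of both.

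**Figure D5:**
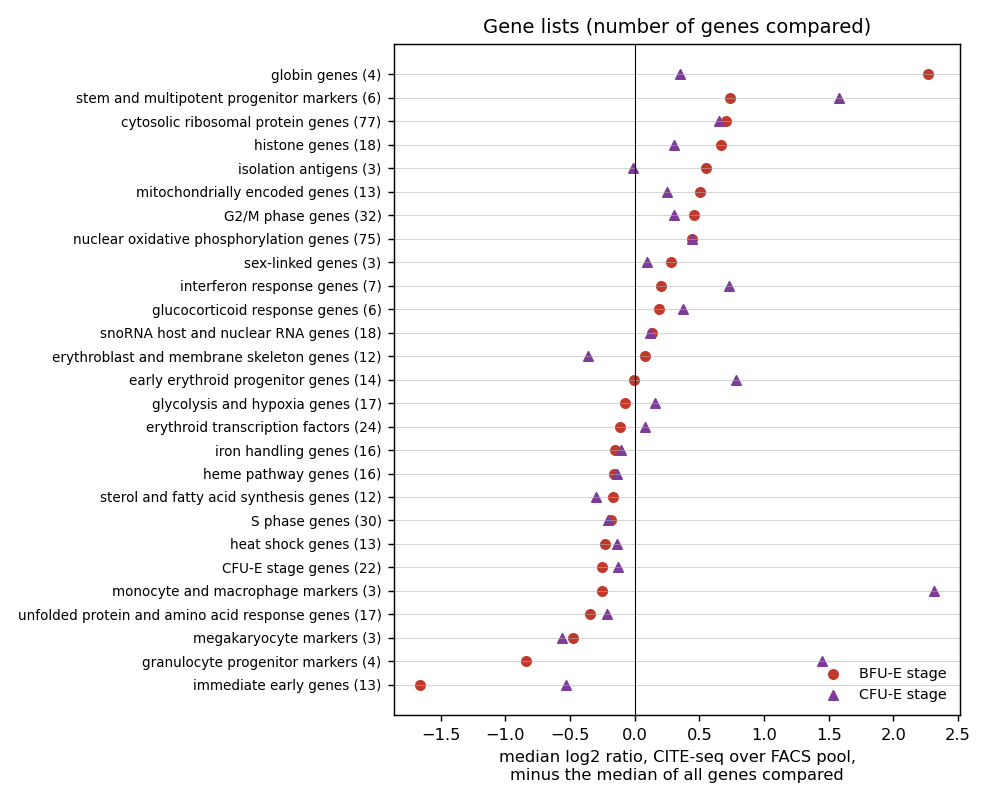
Median log2 ratio of each gene list, CITE-seq over FACS, after the median of all genes compared was subtracted; circles are the BFU-E stage, triangles the CFU-E stage, and the number of genes compared is in brackets. Ribosomal protein genes stand at 0.71 and 0.65 and immediate early genes at -1.66 and -0.53, while lists of few genes, such as globins (4) and monocyte markers (3), differ most between stages.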

How the data were processed

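The deposited table holds natural log values, 1 for each gene and cell. In it the authors had scaled each cell to 10000, added 1 and taken the natural log, as the values themselves show. Tools named in the submitters' processing notes are Scanpy and Cell Ranger (4.0.0), with mm10 as the build; filters and strand setting are not stated there. Whole UMI counts came back from these deposited values when the log was undone and a cell's values were divided by the smallest above 0: all 16419767 nonzero values were whole within 0.02. Cells were grouped by the deposited names. UMIs were summed per pool and scaled to CPM with Python 3.11.15, numpy 2.4.6, pandas 2.3.3 and scipy 1.17.1. Genes with at least 20 CPM in any of 4 pools were compared. A 0 was set to a floor of 3 counts, and no ratio was given where both sides had 3 UMIs or fewer, a rule added after a first look at the values; 22 genes had no CFU-E stage ratio. Pools hold 2968491 to 7374761 UMIs. No test was run, because each pool is 1 sample; the self-check on simulated counts was run on the same steps. Early and late genes were set at 1.5-fold between PE-low and PE-high. Symbols were found for 17592 of 17608 IDs, and positions are from RefSeq on GRCm38.p6. Named genes are, among genes past 1.5-fold in both stages, the 12 furthest each way by the smaller of their 2 log2 ratios; for each stage alone, the 8 furthest each way; up to 4 of each of 31 lists by mean log2 ratio; and Kit, Tfrc, Cd24a and sex-linked genes. Predicted genes are not named unless so stated, and Rpl3, Rpl4, Rpl5, Rpl9, Rpl10 and Gm42418 were named after their values were seen. The members and lists were chosen with earlier results of these data known. Alternatives changed the scaling, the level filter, the fold, the weight of cells and the cells kept. Cells that carry myeloid transcripts are those with at least 2 of 10000 UMIs from granulocyte and monocyte markers. No doublet caller was run, and no cell of the table was removed otherwise. Treatment was not analysed, and 1 gene is not reported here.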

Additional observations from a re-analysis of the deposited data

Results flagged for a closer look

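In 3 genes of myeloid granules, the CITE-seq pool was lower at the BFU-E stage and higher at the CFU-E stage, past 1.5-fold in both, and the difference was not tested. The log2 ratio of the BFU-E stage ratio to the CFU-E stage ratio was -2.92 for Ctsg, -1.80 for Mpo and -2.31 for Prtn3. Ctsg, cathepsin G, had 256 UMIs in CS BFUE, 1025 in FACS BFU-E, 11 in CS CFUE and 2 in FACS CFU-E, and 1 CS CFUE cell held 90.9% of the 11. Prtn3, proteinase 3, had 44 UMIs in 12 CS CFUE cells and 16 in 16 FACS CFU-E cells. Mpo had 41 in 8 cells and 22 in 18 cells. Without cells that carry myeloid transcripts, the CFU-E stage log2 ratio turned to -2.21 for Mpo and -1.04 for Prtn3. Without the 2 percent of cells with most UMIs of each gene, it turned to -2.04 and -0.82. Both alternatives leave out cells by their UMIs of these same genes, alone or with other markers, so the turn is in part built in.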

How the results depend on the processing

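Each pool is 1 sample, so no alternative measures the spread between samples, and small counts at the CFU-E stage limit the early genes most. Genes higher in CS BFUE, in FACS BFU-E, in CS CFUE and in FACS CFU-E numbered 441, 316, 467 and 116 by median of ratios scaling and 98, 134, 149 and 43 at 2-fold. With at least 50 CPM, 486, 193 and 233 were higher in FACS BFU-E, CS CFUE and FACS CFU-E. Higher in both stages in the CITE-seq pool were 286 by median of ratios scaling and 68 at 2-fold, and in the FACS pool 72 by that scaling, 26 at 2-fold and 165 with at least 50 CPM. At the BFU-E stage alone, the CITE-seq side held 9 genes with at least 50 CPM, 12 with the level filter set on the PE pools, 30 by median of ratios scaling and 2 at 2-fold. The FACS side held 35 with at least 50 CPM, 13 at 2-fold and 49 with the other stage within 1.1-fold. At the CFU-E stage alone, the CITE-seq side held 27 with at least 50 CPM and 25 without cells that carry myeloid transcripts. The FACS side held 7 with at least 50 CPM, 7 by median of ratios scaling, 19 without those cells, 1 at 2-fold, 21 with the other stage within 1.1-fold and 17 without the 2 percent of cells with most UMIs of each gene. By that scaling the share of genes past 1.5-fold that were higher in the CITE-seq pool went from 20.4% to 58.3% at the BFU-E stage and from 36.2% to 80.1% at the CFU-E stage, as the median gene moved by 0.22 and 0.21 on the log2 scale. Fewer genes and a higher fold lower a count by construction; otherwise the cause was not tested.

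Among named genes, 7 log2 ratios changed sign without cells that carry myeloid transcripts: Hlf -0.17, Emb 1.83, Ctla2a -0.29 and Cpa3 -0.0021 at the BFU-E stage, and Mpo -2.21, Prtn3 -1.04 and Cd79b 2.79 at the CFU-E stage. Without the 2 percent of cells with most UMIs of a gene, 4 did: C2cd4a 0.0905 and Epb42 0.58 at the BFU-E stage, and Mpo -2.04 and Prtn3 -0.82 at the CFU-E stage. That alternative, the one without hepatocyte-rich cells and the one that asks for intervals leaving out 1 were chosen after seeing the data. Mpo and Prtn3 are among the markers that define the cells with myeloid transcripts. No paired analysis was possible because each pool is 1 sample and the labels give no replicate numbers.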
